A study of Mus musculus with 65 samples.

Results

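The transcriptome of the retina that kept its resident microglia was examined after a systemic challenge with lipopolysaccharide (LPS), the endotoxin of the Gram-negative cell wall. Of the 65 mice in the study, 8 belong to this comparison, chosen by their sample labels, namely 3 LPS_CD mice, which received LPS and vehicle, and 5 CD mice, which received vehicle alone. All 8 were adult C57BL/6J mice with microglia left in place. The study followed bulk retinal RNA in 16 groups while microglia were depleted with PLX5622, an inhibitor of the receptor CSF1R on which microglia depend, and then allowed to return. A second LPS experiment in the same strain, 4 LPS_PLX mice against 4 RP2M mice, was set beside it. The labels give LPS_PLX as PLX5622 with LPS and RP2M as microglial repopulation, and the paper describes both as retinas whose microglia had been replaced. The time between LPS and collection, and the meaning of 2M in the name of 1 CD mouse (CD_2M), are not given in the sources used here.

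LPS is bound in blood by LBP and CD14 and passed to the receptor complex of TLR4 and LY96 (MD-2). The complex acts through NF-kB and induces cytokines, which in turn act through STAT3 and the C/EBP factors to switch on acute phase proteins. In the retina, the endothelium of the inner vessels forms the blood-retina barrier, Müller glia span the tissue and support the photoreceptors, and microglia are the resident immune cells, with C1q as one of their abundant products. All values here are from whole retina, in which more cells of a type and more RNA per cell cannot be told apart.

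Each library held between 7468474 and 8530865 counts in CD and between 7559308 and 7837824 in LPS_CD. The floor was set at 3 counts, or 0.352 to 0.402 CPM (counts scaled to the library total), and covers counting error only. The sample titles end in RE or re, and the suffix split the CD group, since CD_2, CD_3 and CD_4 carry RE while CD_1, CD_2M and all 3 LPS_CD mice carry re. On the first principal component, with 58.3% of the variance, the RE CD mice lay between 20.48 and 29.66 and the re CD mice at -2.45 and -3.13. LPS_CD_1, LPS_CD_2 and LPS_CD_3 lay at -6.45, -23.45 and -37.09, so LPS_CD_1 stood nearest to the untreated mice of its own suffix. The title number of LPS_CD_1 begins with a 1 and those of LPS_CD_2 and LPS_CD_3 with a 0, whereas those of the re CD mice begin with a 2 (CD_1) and a 0 (CD_2M). What the suffix and the leading digit stand for is not stated.

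Genes were compared with edgeR's quasi-likelihood test, and a gene was called at a false discovery rate (FDR) under 0.01 with an absolute log2 fold change above 1. With the title suffix in the model (the suffix fit), 0 of 23606 genes tested were called in either direction, so percent called was 0. In that fit 2486 genes had an unadjusted p under 0.05, and the smallest FDR was 0.0103. At an FDR under 0.05 without a fold threshold, 10 genes were higher (0.0424% of those tested) and 1 was lower (0.00424%). Without the suffix, 38 genes were called higher (0.161%) and 1 lower (0.00424%). With all 16 groups and the suffix in one model (the fit of 16 groups), 202 were called higher (0.856%) and 44 lower (0.186%). That fit takes its spread from all 65 mice, and its suffix effect from other groups besides CD. Of the 202, 139 were higher in every LPS_CD mouse than in every CD mouse, and 33 of the 44 were lower. For the rest the groups overlapped. Over all genes tested, 6.43% were higher and 5.6% lower in this sense. The 202 and 44 genes were called on the values of these same mice, so their separation is no further support for the calls. DESeq2 with the suffix called 20 higher and 1 lower. The 3 LPS_CD mice against the 2 re CD mice alone gave 0 calls, with 1747 genes at an unadjusted p under 0.05. Since the suffix fit called no gene, the rule for naming genes was applied to the calls of the fit without the suffix and of the fit of 16 groups. Other genes named from the lists were chosen after their values were seen. Log2 fold changes are those of the suffix fit, given with their standard error, unless another fit is named. Because every LPS_CD mouse carries re, those fold changes compare LPS_CD with the 2 re CD mice. The RE CD mice add to the estimate of spread and hardly to the fold change. Ranges and means given for CD cover RE and re mice together, so their ratios can differ from the fold changes.

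The 3 LPS_CD mice differed in the size of their response. Of the 202 genes called higher in the fit of 16 groups, 170 were highest in LPS_CD_3, 29 in LPS_CD_2 and 3 in LPS_CD_1, and 174 were lowest in LPS_CD_1 of the 3 mice. The median log2 ratio of these genes to the mean of the re CD mice was 0.57 in LPS_CD_1, 1.24 in LPS_CD_2 and 1.89 in LPS_CD_3. For the 44 genes called lower it was -0.56, -1.29 and -1.69. The number of calls depended on these mice. Without LPS_CD_1, 154 genes were called higher and 92 lower in the suffix fit, and 346 and 201 in the fit of 16 groups. Without LPS_CD_2, the suffix fit called 9 higher and 1 lower. Without LPS_CD_3, it called 0, and the fit of 16 groups called 52 higher and 8 lower. In the fit of 16 groups, 45 of the 202 genes were called higher, and 5 of the 44 lower, whichever of the 8 mice was left out. The 45 included Vwf, Cldn5, Icam1, Cd93, Saa3, Lcn2, Serpina3n, Selenbp1, Mt2, Socs3, C3, C1qa, C1qb, C1qc, Ctss, Cybb, Siglec1, Irf7 and H2-K1.

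**Figure D1:**
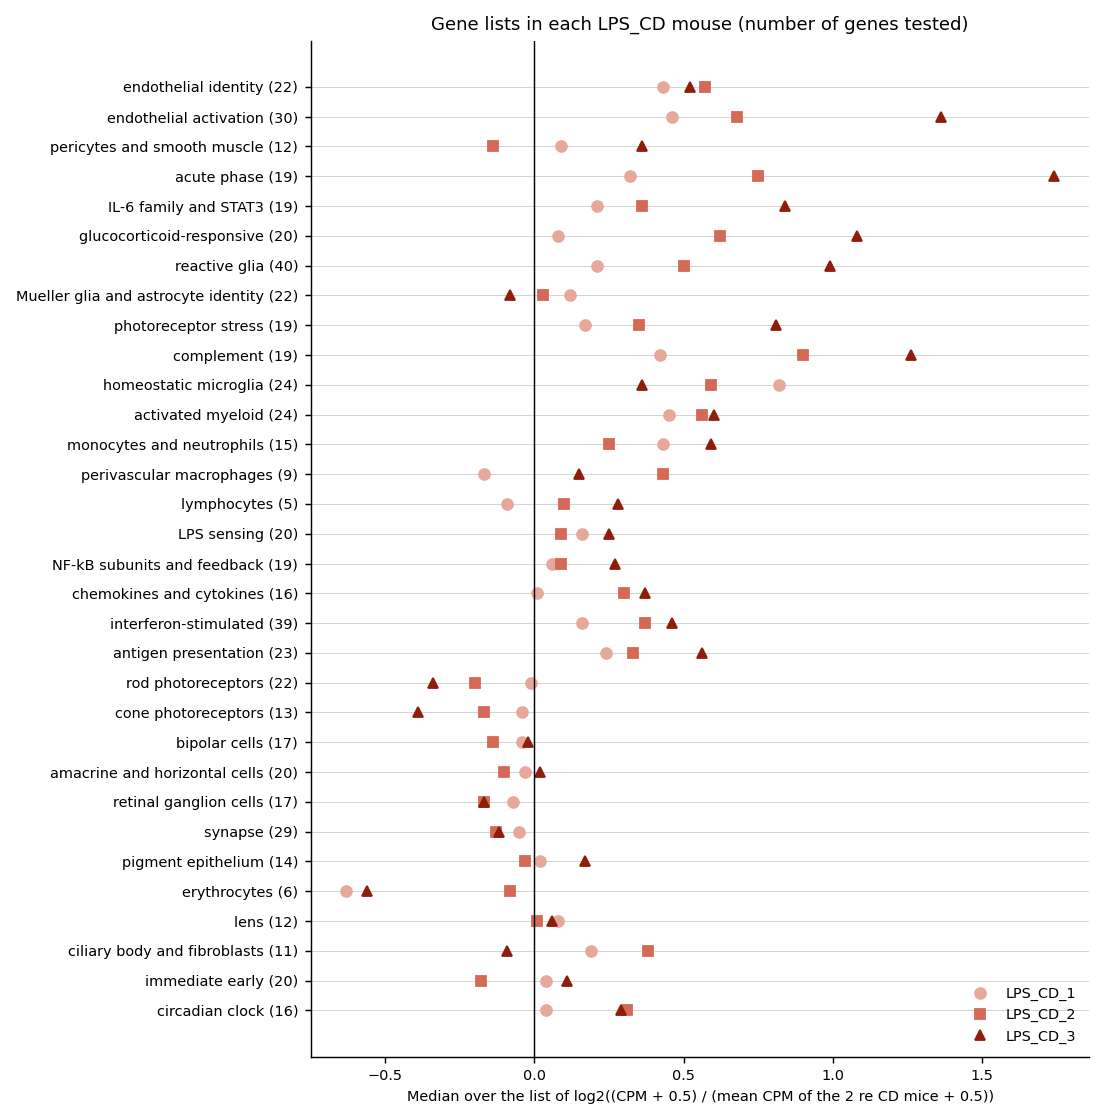
For each of 32 gene lists, the median log2 ratio of its tested genes to the mean of the re CD mice (with 0.5 CPM added) in LPS_CD_1 (circle), LPS_CD_2 (square) and LPS_CD_3 (triangle). The acute phase list moves from 0.32 to 0.75 and 1.74 over the 3 mice, whereas the microglial list lies at 0.82, 0.59 and 0.36.

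An endothelial gene and C1qb shared the smallest FDR of the suffix fit. Vwf, which encodes von Willebrand factor, the platelet-binding glycoprotein stored in endothelial cells, stood at 8.64 and 16.5 CPM in the re CD mice and at 7.97, 11.3 and 7.63 CPM in the RE CD mice. In LPS_CD it reached 45.2, 78.8 and 69.6 CPM, so every LPS_CD mouse was above every CD mouse. The mean of 64.5 ± 17.4 CPM (SD, n = 3) was 6.19 times that of CD, 10.4 ± 3.7 CPM (SD, n = 5), and 5.13 times that of the re CD mice. Its log2 fold change was 2.36 ± 0.27 with an FDR of 0.0103 in the suffix fit, 7.25e-05 without the suffix and 2.09e-14 in the fit of 16 groups. Vwf lies on chromosome 6 from 125546774 to 125686679 of GRCm38. Cldn5, the claudin that seals the tight junctions of the blood-retina barrier, was at 5.68 to 9.38 CPM in CD and at 19.9, 20.6 and 25.3 CPM in LPS_CD, a log2 fold change of 1.54 ± 0.21 (FDR 0.0198). The lowest LPS_CD mouse thus exceeded the highest CD mouse by more than the whole range of CD.

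Of 22 endothelial identity genes, 13 (59.1%) were higher in every LPS_CD mouse than in every CD mouse, against 6.43% of all genes tested, and 0 were lower in every mouse, against 5.6%. These shares of all genes are the reference for every list below. So are the 0.856% called higher and the 0.186% called lower in the fit of 16 groups. The lists were chosen with earlier results of these data known. Their shares are therefore described beside those of all genes and were not tested. The median log2 fold change of the 22 genes was 0.65, beside 0.01 over all genes. The fit of 16 groups called 7 of them higher and 0 lower, and that without the suffix called 4. Pecam1, the adhesion molecule CD31 of endothelial junctions, had a mean of 10.7 ± 1.33 CPM in CD and of 22.9 ± 5.9 CPM in LPS_CD. Eng, the coreceptor endoglin, rose in the fit of 16 groups from 8.8 ± 1.57 to 23.4 ± 9.64 CPM (FDR 1.39e-06). Ly6c1, a surface antigen of capillary endothelium, was at 2.06 to 3.45 CPM in CD and at 5.94, 10.9 and 14.3 CPM in LPS_CD. The list did not move as a block. Slc2a1, the glucose transporter of barrier vessels that photoreceptors and glia also use, had 230, 272 and 260 CPM against 148 to 190 CPM. Kdr, the receptor VEGFR2, had 223, 172 and 131 CPM against 200 to 221 CPM in CD, with an FDR of 0.635. Tek, the angiopoietin receptor, overlapped between the groups. The summed level of the list was 822 to 880 CPM in CD and 989, 1019 and 963 CPM in LPS_CD. For pericytes and smooth muscle, which wrap the same vessels, 1 of 12 genes (Pdgfrb, the PDGF receptor of pericytes) was above and 1 (Abcc9, a channel subunit) below in every mouse. That is 8.33% each, near the shares of all genes, and 0 were called with the suffix, without it or in the fit of 16 groups (the 3 fits).

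Of 30 genes of endothelial activation, 14 (46.7%) lay above all 5 CD mice, with a median log2 fold change of 1.27, and 13 were called higher in the fit of 16 groups. Icam1, which holds leukocytes to the vessel wall, was at 0.119 to 1.19 CPM in CD and at 1.81, 5.73 and 7.02 CPM in LPS_CD (2.49 ± 0.63, FDR 0.206, and 4.94e-06 in the fit of 16 groups). Selp, the P-selectin stored beside von Willebrand factor, had 0 counts in all 5 CD mice and 20 counts in LPS_CD, at least 11.6-fold higher. Ch25h, the enzyme that makes 25-hydroxycholesterol, had 1 count in CD and 38 in LPS_CD, a ratio of 66 with a 95% counting interval from 11.1 to 2673. Lrg1, a secreted glycoprotein of inflamed vessels, went from a mean of 0.235 CPM, under the floor, to 0.904, 2.54 and 10.7 CPM. Cd93, an endothelial lectin receptor, was at 3.05 to 5.8 CPM in CD and at 7.23, 9.54 and 16.4 CPM in LPS_CD. Other classic adhesion genes did not separate. Vcam1, the partner of integrin VLA-4, had 14.5, 14.4 and 13.5 CPM against 10.8 to 14.4 CPM, and Sele, the E-selectin, had 1 count in CD and 5 in LPS_CD (ratio 8.68, interval 0.971 to 410). Ackr1, a chemokine scavenger of venules, had 73.6, 63.6 and 78.9 CPM against 37.6 to 76.9 CPM. Genes of the extracellular matrix, outside the lists, were among the 10 with an FDR under 0.05. They were Sparc, a collagen-binding glycoprotein, at 140 to 161 CPM in CD and 223, 264 and 347 CPM in LPS_CD, and Igfbp7, a secreted binder of insulin-like growth factors, at 8.56 to 11.3 CPM and 21.6, 25.7 and 40.8 CPM. Col27a1, a fibrillar collagen, stood at 55.5 to 65.5 CPM in CD and at 102, 104 and 141 CPM in LPS_CD. Without LPS_CD_3 the fit of 16 groups called 5 of the 30 activation genes and 3 of the 22 identity genes.

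**Figure D2:**
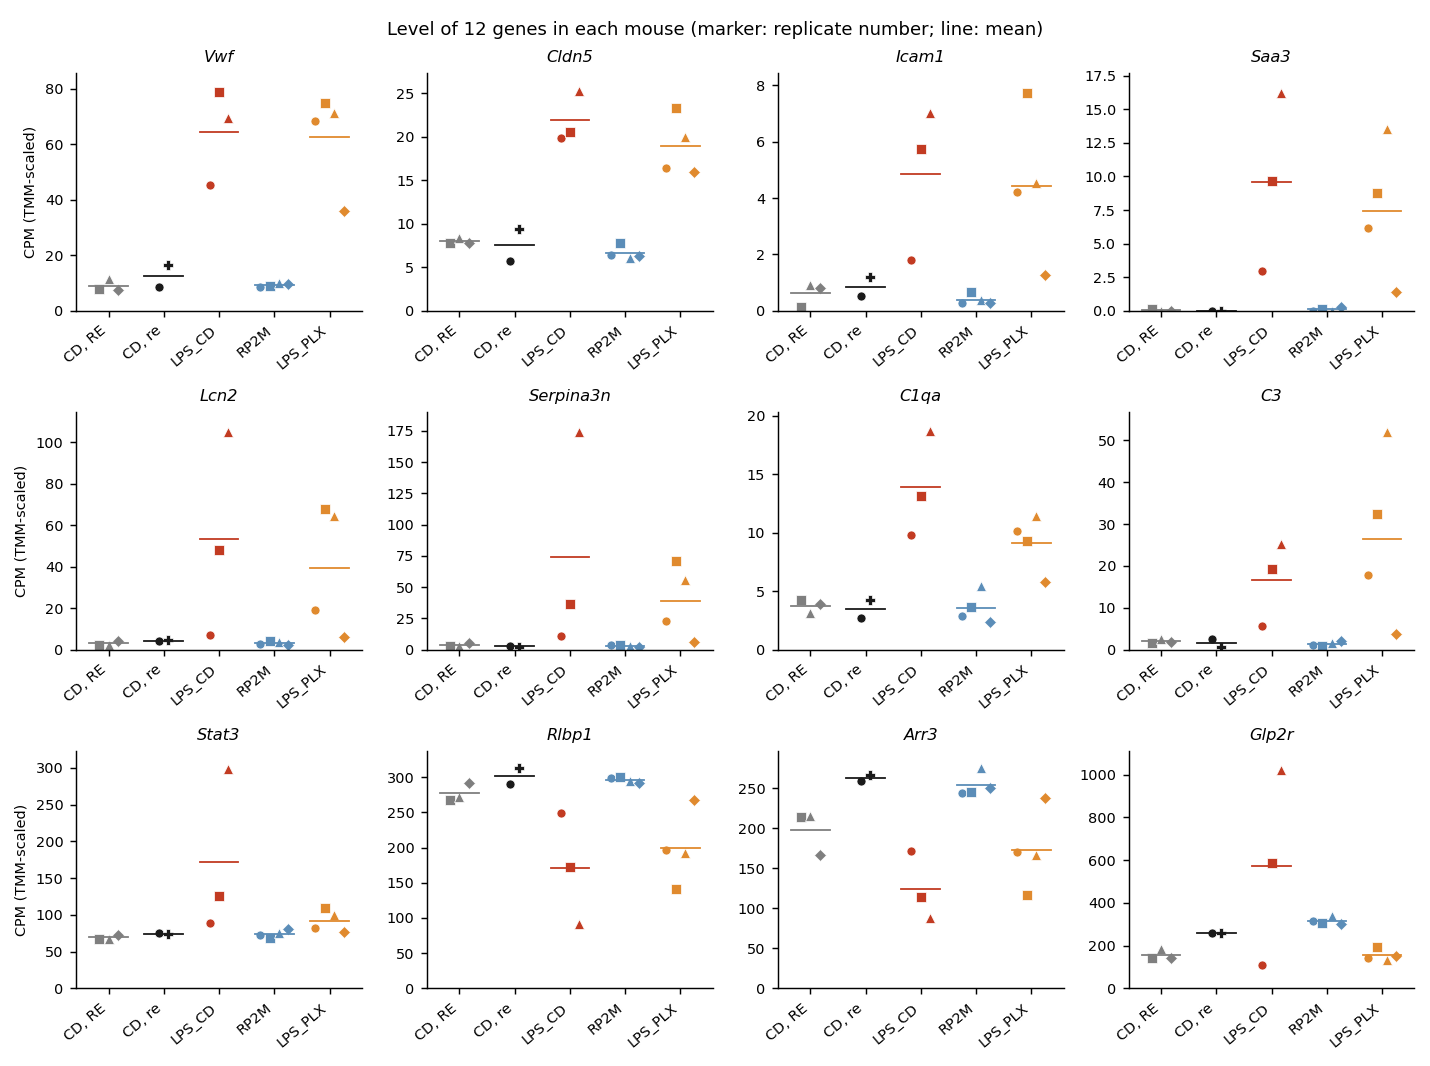
TMM-scaled CPM of 12 genes in each CD mouse with title suffix RE or re, and in each LPS_CD, RP2M and LPS_PLX mouse, with the marker for the replicate number and a line at the group mean. Vwf and Cldn5 are high in all 3 LPS_CD mice, whereas Lcn2, Serpina3n and Stat3 are highest in LPS_CD_3, and Rlbp1 and Arr3 are lowest there.

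Acute phase genes, which code for secreted proteins that the liver and injured tissues release in inflammation, included the gene with the most one-sided counts, Saa3. Saa3, an acute phase serum amyloid A made outside the liver, had 1 count in the 5 CD mice together. In LPS_CD it had 2.97, 9.67 and 16.2 CPM, or 228 counts, a ratio of 396 (95% counting interval 70.3 to 15697), and its FDR was 0.0318 in the suffix fit. Lcn2, the siderophore-binding lipocalin, was at 2.26 to 4.49 CPM in CD and at 7.1, 48.1 and 105 CPM in LPS_CD (3.62 ± 0.79, FDR 0.155, and 0.00345 without the suffix). Serpina3n, a serine protease inhibitor of reactive glia and liver, went from 1.85 to 5.05 CPM in CD to 10.6, 36.6 and 174 CPM in LPS_CD (FDR 0.137, and 0.00345 without the suffix, with a log2 fold change of 4.59 ± 0.51 in the fit of 16 groups). For both, LPS_CD_3 was far above LPS_CD_1, and even LPS_CD_1 exceeded every CD mouse. Serpina3n shares sequence with neighbouring Serpina3 genes, so reads could be assigned to the wrong copy. Serpina3m had 0 counts in CD and 16 in LPS_CD (at least 9.26-fold higher), most of them in LPS_CD_3. The metallothioneins Mt1 and Mt2, which bind zinc, were also higher, Mt1 at 11.7 to 30 CPM in CD and 39.8, 75.2 and 114 CPM in LPS_CD, and Mt2 at 5.55 to 12 CPM and 20, 29 and 70.4 CPM. A2m, the protease trap alpha-2-macroglobulin, was at 4.64 to 7.87 CPM in CD and at 7.36, 16.5 and 64.2 CPM in LPS_CD, so that LPS_CD_1 overlapped the controls. Of 19 acute phase genes tested, 7 (36.8%) lay above all 5 CD mice, 9 were called higher in the fit of 16 groups, or 4 without LPS_CD_3, and 5 without the suffix, and the median log2 fold change was 2.18. Lbp and Hp, both typical liver products, stayed near or under the floor with at most 0.878 CPM in any of the 8 mice.

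The promoters of 4 genes of this list and others are shown, picked because their RNA separated the groups and they carry a match. The match is to a motif of a factor named above, in the last 250 bases before the start or the first 50 after it. Serpina3n was examined too, and its promoter held no match. Socs3 (STAT) and Selenbp1 (C/EBP) held matches that are not shown. Capitals mark the match, TTGCNNAA (C/EBP) in Saa3, Lcn2 and C3 and TTCNNNGAA (STAT) in Icam1, searched on both strands. The sequences are from RefSeq on GRCm38.p6, 5′ to 3′ on the gene's strand, at chr7:46715627-46715926 (minus) for Saa3, chr2:32387690-32387989 (minus) for Lcn2, chr17:57228087-57228386 (minus) for C3 and chr9:21015690-21015989 (plus) for Icam1.
Saa3: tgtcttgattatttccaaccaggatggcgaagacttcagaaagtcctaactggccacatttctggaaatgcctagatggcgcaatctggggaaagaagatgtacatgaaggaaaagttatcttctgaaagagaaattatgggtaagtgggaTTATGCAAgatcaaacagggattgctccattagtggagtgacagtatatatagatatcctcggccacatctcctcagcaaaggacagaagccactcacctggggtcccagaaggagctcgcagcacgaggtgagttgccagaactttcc
Lcn2: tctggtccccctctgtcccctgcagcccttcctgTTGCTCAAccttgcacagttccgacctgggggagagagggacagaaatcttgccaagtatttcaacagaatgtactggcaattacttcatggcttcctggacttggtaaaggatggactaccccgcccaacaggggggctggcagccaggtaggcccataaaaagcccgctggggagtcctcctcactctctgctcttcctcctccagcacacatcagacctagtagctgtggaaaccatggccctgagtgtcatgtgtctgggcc
C3: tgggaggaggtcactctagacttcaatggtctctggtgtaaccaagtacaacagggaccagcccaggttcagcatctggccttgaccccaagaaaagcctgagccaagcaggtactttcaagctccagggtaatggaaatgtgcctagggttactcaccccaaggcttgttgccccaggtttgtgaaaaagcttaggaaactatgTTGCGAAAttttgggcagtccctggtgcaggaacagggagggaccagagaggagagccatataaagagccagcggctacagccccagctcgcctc
Icam1: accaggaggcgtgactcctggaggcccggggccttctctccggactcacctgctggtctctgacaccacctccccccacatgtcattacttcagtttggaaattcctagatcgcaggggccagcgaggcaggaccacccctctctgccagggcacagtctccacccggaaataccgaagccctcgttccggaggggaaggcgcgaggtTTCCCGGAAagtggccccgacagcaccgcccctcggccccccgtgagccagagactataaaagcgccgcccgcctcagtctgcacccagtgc
Such matches are common. TTGCNNAA was present in 10.8% of 32851 promoters of the same length, in 7 of the 26 promoters matched (26.9%) among the 38 genes called without the suffix, and in 13.1% of the 145 matched among the 202 genes of the fit of 16 groups. TTCNNNGAA was present in 8.3% of all promoters and in 7.69% and 13.8% of those gene groups. The NF-kB motif was present in 8.46% of all promoters and in 15.4% and 16.6%. A match is a run of letters and not a binding site, and no test was made of these shares.

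Stat3, the factor through which the IL-6 family acts, was at 67.2 to 75 CPM in CD and at 89.5, 126 and 299 CPM in LPS_CD, without overlap (1.20 ± 0.35, FDR 0.264, and 1.2e-08 in the fit of 16 groups). Its feedback inhibitor Socs3 was at 1.94 to 4.11 CPM in CD and at 5.16, 10.2 and 24.2 CPM in LPS_CD. Cebpd, a C/EBP factor of the acute phase, had 5.35 to 9.16 CPM in CD and 10.2, 13.4 and 54.1 CPM in LPS_CD. The order of the 3 mice was the same for these genes as for the acute phase genes. Il6ra, the IL-6 receptor, was at 0.352 to 0.924 CPM in CD and at 1.55, 1.91 and 2.13 CPM in LPS_CD, whereas Il6 itself had 1 count in the 8 mice together and was not tested. Of 19 genes of the IL-6 family and STAT3 tested, 9 (47.4%) lay above all 5 CD mice and 3 were called higher in the fit of 16 groups, or 1 without LPS_CD_3.

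Genes of reactive and of resting glia were counted separately. Of 40 reactive glia genes, 10 (25%) were above all CD mice and 0 below, 38 had a positive log2 fold change, the median was 0.91 and 8 were called higher in the fit of 16 groups, or 3 without LPS_CD_3 and 14 without LPS_CD_1. Of the 8, all but Gfap are counted in other lists too. Lcn2, Serpina3n and Steap4 are acute phase genes, C3 and Serping1 complement genes, Fkbp5 a glucocorticoid-responsive gene and Edn2 a photoreceptor stress gene. Gfap, the intermediate filament of astrocytes and stressed Müller cells, was at 9.87 to 12 CPM in CD and at 11.7, 16.4 and 79.6 CPM in LPS_CD, so that only LPS_CD_3 was far from the controls (FDR 0.35, and 0.000334 in the fit of 16 groups, or 0.728 in the least favourable case with 1 mouse left out). Vim, the filament vimentin, had 87.1 to 92.8 CPM in CD and 120, 119 and 225 CPM in LPS_CD, and Clu, the chaperone clusterin, had 458 to 546 CPM and 613, 788 and 1190 CPM. Both were above all controls in all 3 mice, with log2 fold changes of 0.80 ± 0.22 and 0.85 ± 0.20. These are under the fold threshold, and neither gene reached an FDR under 0.05 in the suffix fit. Serping1, the inhibitor of C1, was at 4.75 to 7.52 CPM in CD and at 10.3, 15.6 and 45.1 CPM in LPS_CD. Outside the glial lists, Selenbp1, a selenium-binding protein that acts as a methanethiol oxidase, was at 2.73 to 6.21 CPM in CD and reached 14.7, 58.9 and 101 CPM in LPS_CD (3.31 ± 0.59, FDR 0.0879, and 8.7e-10 in the fit of 16 groups).

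Of 22 identity genes of Müller glia and astrocytes, 7 (31.8%, against 6.43% of all genes) were above and 3 (13.6%, against 5.6%) below all CD mice, the median log2 fold change was 0.03 and 0 were called in the suffix fit, the fit without it and the fit of 16 groups. The 7 above were Clu and Vim, given with the reactive genes, and Aldh1l1, Dkk3, Id3, Pax2 and Sox9. Aldh1l1, a folate enzyme of astrocytes, was at 8.1 to 16 CPM in CD and at 16.7, 25.4 and 28.6 CPM in LPS_CD, and Sox9, a glial transcription factor, at 25.7 to 34.7 CPM and 36.5, 36.6 and 36.2 CPM. Dkk3, a secreted protein of Müller cells, was at 637 to 670 CPM in CD and at 710, 907 and 735 CPM in LPS_CD. The 3 below were Rlbp1, Slc1a3 and Abca8a. Rlbp1, the retinaldehyde-binding protein of the visual cycle in Müller cells and pigment epithelium, was at 268 to 313 CPM in CD and at 249, 172 and 91.2 CPM in LPS_CD (-0.82 ± 0.25, FDR 0.289). Slc1a3, the glutamate transporter GLAST, had 170 to 203 CPM in CD and 148, 116 and 124 CPM in LPS_CD, and Abca8a, a lipid transporter, had 227 to 256 CPM and 199, 113 and 116 CPM. None of the 10 was called. Glul, the glutamine synthetase of Müller cells, had 1958, 1725 and 1239 CPM against 1635 to 1924 CPM, and Aqp4, the water channel of glial endfeet, had 126, 115 and 120 CPM against 106 to 161 CPM. For both the groups overlapped.

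Genes that answer to glucocorticoids, the stress hormones that endotoxin releases, formed a further group. Of 20 tested, 6 (30%) were above all CD mice and 8 were called higher in the fit of 16 groups, or 2 without LPS_CD_3. Fkbp5, a cochaperone of the glucocorticoid receptor, was at 22.5 to 25.2 CPM in CD and at 67.6 and 73.5 CPM in LPS_CD_2 and LPS_CD_3, whereas LPS_CD_1 had 22.3 CPM, below all controls. Cdkn1a, the cell cycle inhibitor p21, had 1.45 to 6.18 CPM in CD and 3.49, 12.6 and 41 CPM in LPS_CD. Plin4, a lipid droplet protein, had 0.357 to 1.93 CPM in CD and 2.84, 6.23 and 10.9 CPM in LPS_CD. Other members of the list overlapped between the groups, Tsc22d3 (GILZ) with 20.1, 20.7 and 25.7 CPM against 16.4 to 23 CPM, and Sgk1, a kinase of ion transport, with 360, 350 and 384 CPM against 316 to 385 CPM. The list also holds Lcn2, Mt1 and Mt2 from the acute phase list.

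The complement list held 3 of the 10 genes with an FDR under 0.05. C1qa, C1qb and C1qc, which lie side by side on chromosome 4 and code for the 3 chains of C1q, were those genes. C1qb was at 1.58 to 4.23 CPM in CD and at 10.1, 11.7 and 15.6 CPM in LPS_CD, with a log2 fold change of 2.48 ± 0.30 (FDR 0.0103). C1qa was at 2.71 to 4.28 CPM in CD and at 9.81, 13.1 and 18.7 CPM in LPS_CD, and C1qc at 2.06 to 4.58 CPM and 9.81, 13.4 and 21.9 CPM. All 3 chains separated the groups in every mouse, LPS_CD_1 included. C3, the component on which all complement pathways meet, was at 0.66 to 2.58 CPM in CD and at 5.55, 19.3 and 25.3 CPM in LPS_CD (3.35 ± 0.60, FDR 0.0879, and 0.00194 without the suffix). C4b, which joins C2 to form the classical convertase and shares most of its sequence with C4a, was at 2.38 to 6.45 CPM in CD and at 9.04, 17.4 and 39.4 CPM in LPS_CD. C1ra, the protease of C1, went from 0 to 0.516 CPM in CD to 0.516, 2.29 and 4.77 CPM. In the alternative pathway, Cfb, its factor B, overlapped between the groups. Of 19 complement genes tested, 9 (47.4%) were above all CD mice, 8 were called higher in the fit of 16 groups, or 4 without LPS_CD_3, and 4 without the suffix.

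Part of the microglial genes were higher as well. Of 24 homeostatic microglial genes, 11 (45.8%) were above all CD mice, 4 were called in the fit of 16 groups and 4 in that without the suffix, and the summed level was 83.9 to 107 CPM in CD and 160, 165 and 174 CPM in LPS_CD. The median log2 ratio to the re CD mice was highest in LPS_CD_1 (0.82) and lowest in LPS_CD_3 (0.36), the reverse of the acute phase list, whereas the summed level and the called genes C1qa, C1qb, C1qc and Ctss were lowest in LPS_CD_1 and highest in LPS_CD_3. Ctss, the lysosomal protease cathepsin S, was at 3.96 to 10.6 CPM in CD and at 13, 16 and 16.2 CPM in LPS_CD (1.72 ± 0.23, FDR 0.0198). Csf1r, the receptor that PLX5622 blocks, was at 13.7 to 19.5 CPM in CD and at 26.5, 26.6 and 24.7 CPM in LPS_CD (0.51 ± 0.16, FDR 0.305). Laptm5, a lysosomal membrane protein of leukocytes, had 3.69 to 5.4 CPM in CD and 9.17, 10.6 and 11.3 CPM in LPS_CD. A positive log2 fold change was found for 22 of the 24 genes, with a median of 0.65. The homeostatic markers Cx3cr1, Tmem119 and P2ry12 did not separate the groups. Cx3cr1, the fractalkine receptor, had 9.17, 5.98 and 2.26 CPM against 1.93 to 6.93 CPM, Tmem119 had 2.84, 2.29 and 1 CPM against 1.29 to 1.85 CPM, and P2ry12, the ADP receptor, had 1.29, 1.4 and 1 CPM against 0.924 to 2.97 CPM. For Cx3cr1 and Tmem119, LPS_CD_1 was the highest and LPS_CD_3 the lowest of the 3 LPS_CD mice.

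Genes of activated myeloid cells were at low levels. Of 34 in the list, 24 were tested, 8 (33.3%) lay above all CD mice and 4 were called higher in the fit of 16 groups, or 2 without LPS_CD_3. Cybb, the NADPH oxidase subunit that makes the oxidative burst, had 3 counts in CD and 36 in LPS_CD, a ratio of 20.8 (interval 6.58 to 106). Outside the list, Siglec1, the sialic acid lectin CD169 of macrophages, had 1 count in CD and 65 in LPS_CD (ratio 113, interval 19.5 to 4523). Fcgr3 (outside the list) and Fcgr2b, an activating and an inhibitory receptor for IgG, were at 0.238 to 1.16 and 0.119 to 0.645 CPM in CD, and at 2.58, 3.56 and 5.27 CPM and 1.42, 1.78 and 3.64 CPM in LPS_CD. Itgb2, the beta chain of leukocyte integrins and also outside it, was at 0.387 to 0.832 CPM in CD and at 1.94, 4.07 and 4.01 CPM in LPS_CD. Csf2rb2, a receptor chain for IL-3 in none of the lists, had 8 counts in CD and 126 in LPS_CD and was at 1.03, 3.82 and 11 CPM. Lyz2, the lysozyme of macrophages and neutrophils, had 0.357 to 1.68 CPM in CD and 2.07, 3.31 and 7.52 CPM in LPS_CD.

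Markers of blood-borne and perivascular cells were at low levels, and their part in the myeloid and endothelial values was not tested. Of 15 monocyte and neutrophil genes tested, 2 (Ltf and Ngp, of neutrophil granules), or 13.3%, were above all CD mice and 0 were called. Against the 2 re CD mice alone, 5 (33.3%) were above, beside 12% of all genes. A positive log2 fold change was found for 12 of the 15. The median was 3.56, or 1.30 without the suffix and 1.58 in the fit of 16 groups. Between LPS_PLX and RP2M, 2 of the 15 were called higher. The summed level of the list was 18.5 to 23.2 CPM in CD and 29.6, 23 and 22.2 CPM in LPS_CD. S100a8 and S100a9, the calprotectin subunits of neutrophils, were at most 0.516 and 3.35 CPM in CD and at most 0.645 and 1.94 CPM in LPS_CD. Of 9 genes of perivascular macrophages, 2 (22.2%) were above all CD mice, 7 had a positive log2 fold change and the median was 0.82. Among them F13a1, the coagulation factor XIII subunit, had 0 counts in CD and 28 in LPS_CD (at least 16.2-fold higher). It had 3.01 CPM in LPS_CD_3 and at most 0.382 CPM in LPS_CD_1 and LPS_CD_2. Mrc1 and Cd163 had 3 counts each in LPS_CD. Haemoglobin RNA was lower. Hbb-bs was at 1.81 to 8.57 CPM in CD and at 0.129, 1.65 and 0.251 CPM in LPS_CD, and 3 of 6 erythrocyte genes (Hba-a1, Hbb-bs and Hbb-bt, near-identical copies in each cluster) were below all CD mice, with 0 called. Of 12 lymphocyte genes 5 were tested, and none separated the groups.

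The genes of the LPS receptor were at low levels in the retina. Tlr4 had at most 0.773 CPM and Ly96 at most 0.705 CPM in any of the 8 mice, and both overlapped between the groups. Cd14 was at 0.516 to 1.06 CPM in CD and at 1.68, 1.27 and 1.76 CPM in LPS_CD, and Myd88, the adaptor of Toll-like receptors, at 6.3 to 9.77 CPM and 13.8, 10.4 and 13 CPM. Of 20 genes of LPS sensing, 5 (25%) were above all CD mice, with Irak4, Ticam1 and Tlr2 beside Cd14 and Myd88, and 0 were called in the suffix fit, the fit without the suffix and the fit of 16 groups. Of 19 NF-kB subunits and feedback genes, 4 (21.1%) were above and 2 (10.5%) below all CD mice, against 6.43% and 5.6% of all genes. Bcl3, an atypical I-kappa-B, was the 1 called in the fit of 16 groups, at 0.258 to 0.939 CPM in CD and 1.03, 1.15 and 5.27 CPM in LPS_CD. Nfkbia, the inhibitor that NF-kB induces, had 24.4, 25.2 and 49.3 CPM against 18.8 to 25.9 CPM, and Tnfaip3 (A20), at 397 to 506 CPM in CD, had 424, 356 and 253 CPM.

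Many of the cytokine genes were close to absent, although the summed level of the list was 192 to 215 CPM in CD and 202 to 214 CPM in LPS_CD. Of 33 chemokine and cytokine genes, 17 had too few counts to be tested, and Tnf, Il10, Il12b, Cxcl2, Cxcl9 and Ifnb1 had 0 counts in the 8 mice, which allows up to 3 counts over all of them. Il1b had 8 counts in CD and 2 in LPS_CD, and Cxcl10 had 2 in each group. Ccl2, the monocyte chemokine, had 0 counts in CD and 4 in LPS_CD. Ccl5, a chemokine of T cells and macrophages, had 3 counts in CD and 21 in LPS_CD (ratio 12.1, interval 3.63 to 63.6). Cx3cl1, the neuronal fractalkine and the most abundant of the list, had 127, 103 and 96.7 CPM against 98.1 to 132 CPM. In all, 3 of the 16 tested (18.8%) were above all CD mice and 0 were called in the 3 fits. Of 39 interferon-stimulated genes tested, 4 (10.3%) were above all CD mice, against 6.43% of all genes, and 3 were called higher in the fit of 16 groups. Against the 2 re CD mice alone, 12 (30.8%) were above, beside 12% of all genes. A positive log2 fold change was found for 37 of the 39, with a median of 0.41. The summed level of the list was 208 to 227 CPM in CD and 223, 278 and 363 CPM in LPS_CD. Irf7, the regulator of type I interferons, was at 12.8 to 18.6 CPM in CD and at 22.2, 52.5 and 77.4 CPM in LPS_CD (1.50 ± 0.35, FDR 0.179, and 0.00681 without the suffix), and Ifitm3, a block to viral entry, at 2.51 to 3.99 CPM and 6.07, 9.8 and 13.9 CPM. The interferon targets Isg15 and Ifit3 overlapped between the groups. Isg15 was at 1.42, 0.636 and 0.251 CPM against 0.66 to 1.55 CPM, and Ifit3 at 2.58, 5.6 and 5.02 CPM against 3.23 to 5.16 CPM.

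Of 23 genes of antigen presentation, 7 (30.4%) were above all CD mice and 4 were called higher in the fit of 16 groups (B2m, H2-K1, H2-Q4 and Nlrc5), or 1 without LPS_CD_3. B2m, the light chain of class I, was at 14.8 to 24.8 CPM in CD and at 34, 29.5 and 40.6 CPM in LPS_CD, and H2-D1, a class I heavy chain, at 26.9 to 34.3 CPM and 41.2, 50.3 and 80.9 CPM. H2-K1, a second heavy chain, was at 11.6 to 21.5 CPM in CD and at 24.3, 29.9 and 34.4 CPM in LPS_CD. Reads of H2 genes can be shared between near-identical copies. Nlrc5, the activator of class I genes, was far above the controls in LPS_CD_3 alone (7.02 CPM, against 1.16 and 1.27 CPM in LPS_CD_1 and LPS_CD_2 and at most 1.55 CPM in CD). Of the class II genes, Cd74, the invariant chain, was at 0.387, 0.509 and 0.878 CPM against 0.132 to 0.822 CPM and H2-Aa had 7 counts in CD and 1 in LPS_CD.

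**Figure D3:**
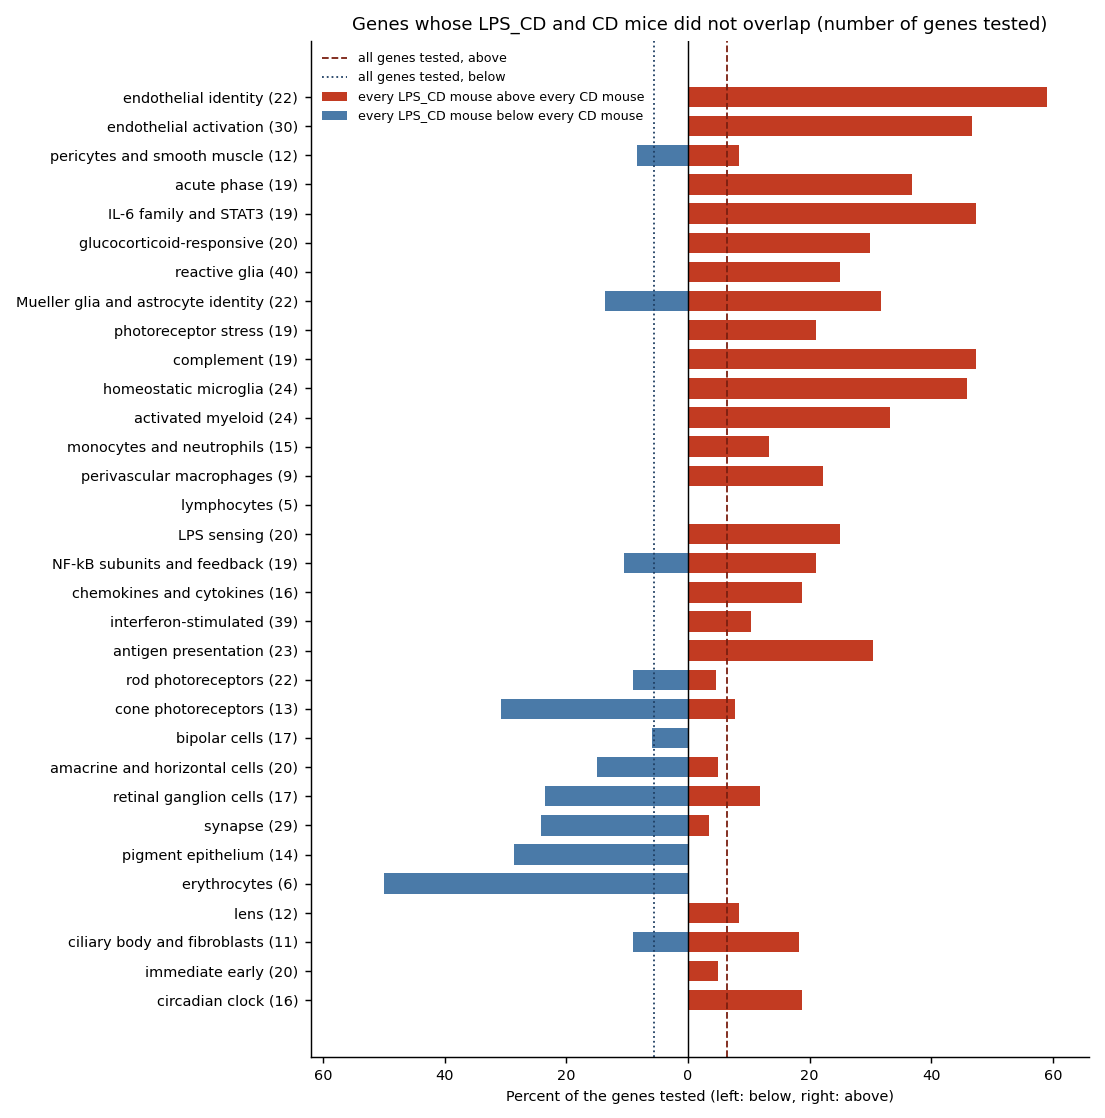
Percent of the tested genes of each of 32 lists that were higher (right) or lower (left) in all 3 LPS_CD mice than in all 5 CD mice, with dashed and dotted lines at the 6.43% and 5.6% of all genes tested. Endothelial identity (59.1% above), complement (47.4%), IL-6 family and STAT3 (47.4%), endothelial activation (46.7%) and homeostatic microglia (45.8%) extend farthest to the right, and the neuronal lists extend mainly to the left.

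Neuronal genes showed small shifts. The medians of the log2 fold change were -0.19 for 22 rod genes, -0.19 for 13 cone genes, -0.08 for 17 bipolar genes, -0.03 for 20 amacrine and horizontal genes, -0.09 for 17 ganglion cell genes and -0.12 for 29 synapse genes, beside 0.01 over all genes. Over these lists, only Arr3 was called, and only in the fit of 16 groups. Arr3, the arrestin that quenches cone opsins, was at 167 to 267 CPM in CD, with the 2 re CD mice at 259 and 267 CPM, and at 172, 114 and 87.5 CPM in LPS_CD (-1.08 ± 0.20, FDR 0.0971, and 1.45e-07 in the fit of 16 groups). LPS_CD_1 thus overlapped the RE CD mice but not the re CD mice. Of the cone genes, 4 (30.8%) were below all CD mice, against 5.6% of all genes. They were Gnat2, the cone transducin, at 124 to 157 CPM in CD and 114, 107 and 97.4 CPM in LPS_CD, both cone phosphodiesterase genes Pde6c and Pde6h, and Thrb, the thyroid hormone receptor of cones. The cone opsins did not share this, since Opn1sw had 309, 270 and 225 CPM against 259 to 325 CPM and Opn1mw had 95.1, 123 and 127 CPM against 79 to 100 CPM. Guca1a, an activator of guanylate cyclase in rods and cones, was higher at 629, 875 and 807 CPM against 460 to 566 CPM (0.59 ± 0.14, FDR 0.171).

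Gnat1, the rod transducin, had 13624 CPM in LPS_CD_1, within the 12505 to 14177 CPM of CD, and 8749 and 8219 CPM in LPS_CD_2 and LPS_CD_3 (-0.43 ± 0.17, FDR 0.387). Rp1, a protein of the outer segment axoneme, and Grk1, a kinase of phototransduction, were the 2 rod genes (9.09%) below all CD mice. Against the 2 re CD mice alone, 7 of the 22 (31.8%) were below, beside 13.2% of all genes, namely these and Abca4, Gnb1, Nrl, Pde6b and Slc24a1. By the same measure 5 cone genes (38.5%), 6 ganglion cell genes (35.3%) and 9 synapse genes (31%) were below. Rp1 was at 1433, 1401 and 1193 CPM in LPS_CD, at 1667 and 1549 CPM in the re CD mice and at 2097 to 2646 CPM in the RE CD mice, so part of the distance to CD lay between the suffixes. Of the ganglion cell genes, 4 (23.5%) were below all CD mice and 2 above. Nefl, the neurofilament light chain, was at 397 to 466 CPM in CD and at 365, 306 and 296 CPM in LPS_CD (-0.40 ± 0.11, FDR 0.25), and Nefh, the heavy chain, at 117 to 148 CPM and 96.6, 88.4 and 86.5 CPM. Of the synapse genes, 7 (24.1%) were below and 1 (Ctbp2, the gene of the ribbon protein RIBEYE) above all CD mice. Snap25, a SNARE of vesicle fusion, was at 1218 and 1346 CPM in the re CD mice, 1601 to 1710 CPM in the RE CD mice and 1183, 1082 and 1044 CPM in LPS_CD. Dlg4, the scaffold PSD-95, had 1130 CPM in LPS_CD_1, inside the 1051 to 1239 CPM of CD, and 614 and 564 CPM in the other two. Of 17 bipolar genes, 1 (Otx2), or 5.88%, was below, and of 20 amacrine and horizontal genes, 3 (Calb2, Prox1 and Slc17a8), or 15%, were below, against 5.6% of all genes.

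Genes of photoreceptor stress were higher in part. Of 19 tested, 4 (21.1%) were above all CD mice and 4 were called higher in the fit of 16 groups (Bcl3, Edn2, Gadd45b and Gsdmd), or 1 without LPS_CD_3. Edn2, the endothelin of injured photoreceptors, had 3.49, 8.4 and 26.7 CPM against 1.55 to 5.87 CPM, and Fgf2, a survival factor, had 29, 40.3 and 97.4 CPM against 23.6 to 43 CPM. For both, LPS_CD_1 lay within the controls. Gsdmd, the pore-former of pyroptosis, differed from this with 1.81, 1.78 and 1.63 CPM against 0.238 to 0.66 CPM. Of 14 pigment epithelium genes, 4 (Rlbp1, Mitf, Otx2 and Tyrp1), or 28.6%, were below all CD mice, against 5.6% of all genes. Rpe65, the isomerase that defines this layer, was at 0 and 0.132 CPM in the re CD mice, 0.516 to 1.66 CPM in the RE CD mice and 0.904, 0.509 and 1.76 CPM in LPS_CD. The lens crystallin Cryaa was at most 0.258 CPM in 7 of the 8 mice and at 5.87 CPM in CD_4. Of 12 lens genes 1 (8.33%) was above all CD mice, Cryab, a small heat shock protein also of glia. Of 11 ciliary body and fibroblast genes 2 (18.2%) were, Col1a1 and Col1a2, with 0 called in the 3 fits for either list. Of 20 immediate early genes 1 (Junb), or 5%, was above all CD mice, and of 16 clock genes 3 were (Bhlhe40, Cry2 and Npas2), or 18.8%, against 6.43% of all genes.

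Among genes called lower, 1 was called in both fits, A930030B08Rik on chromosome 7, an unclassified transcript (11.6 and 13.1 CPM in the re CD mice, 8.1 to 10.9 CPM in the RE CD mice and 5.03, 2.42 and 3.39 CPM in LPS_CD). Its log2 fold change was -1.77 ± 0.26 (FDR 0.0316). The other 4 called lower whichever mouse was left out were Katnal2, a katanin-like protein of microtubules, Ttc21a, a protein of cilia, and the predicted genes Gm6277 and Gm42697. Katnal2 was at 15.7 to 19.1 CPM in CD and at 12.1, 2.67 and 1.38 CPM in LPS_CD, and Ttc21a at 3.76 to 7.87 CPM and 3.1, 2.67 and 1.38 CPM. Of the 15 called lower with the largest log2 fold changes, 10 are predicted genes without a given name, and the named ones included Dyx1c1 and Wdr63, which serve the assembly of motile cilia. Wdr63 was at 1.42 to 2 CPM in CD and at 0.904, 0.382 and 0.376 CPM in LPS_CD.

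The second LPS experiment shares no mouse with the first. Between LPS_PLX and RP2M, all with suffix re, 98 of 24927 genes tested were called higher (0.393%) and 11 lower (0.0441%). Of the 38 genes called higher in LPS_CD without the suffix, 25 were called there too (65.8% of the 38 and 25.5% of the 98), and all 38 had the same sign, with a median log2 fold change of 1.42 in LPS_PLX. Of the 202 genes of the fit of 16 groups, 59 were called in both (29.2% of the 202 and 60.2% of the 98) and 188 had the same sign, with a median of 1.05. The fit of 16 groups takes part of its spread from the RP2M and LPS_PLX mice, so its calls are not fully separate from this experiment. The share of all genes with the same sign was not computed. Of the 44 called lower, 0 were called lower in LPS_PLX by edgeR (21 had an unadjusted p under 0.05 in either direction), and 34 had the same sign, with a median of -0.32. Vwf was at 9.26 ± 0.727 CPM in RP2M and 62.6 ± 18 CPM in LPS_PLX (SD, n = 4 each), a log2 fold change of 2.75 with an FDR of 4.53e-11. Cldn5 was at 6.64 ± 0.776 and 18.9 ± 3.44 CPM, C1qa at 3.59 ± 1.34 and 9.13 ± 2.41 CPM, and Saa3 at 0.099 ± 0.127 and 7.47 ± 5.06 CPM. These 4 genes were called higher there. Stat3 had 74.3 ± 5.21 and 92 ± 15 CPM there, a log2 fold change of 0.30 (FDR 0.0428), against 1.20 in LPS_CD, or 0.53 without LPS_CD_3, and the difference of the effects had an FDR of 0.804. Arr3 was at 254 ± 14.8 and 173 ± 49.5 CPM (FDR 0.00361, under the fold threshold), and Rlbp1 at 296 ± 4.28 and 199 ± 52.3 CPM (FDR 0.00112, likewise under it).

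**Figure D4:**
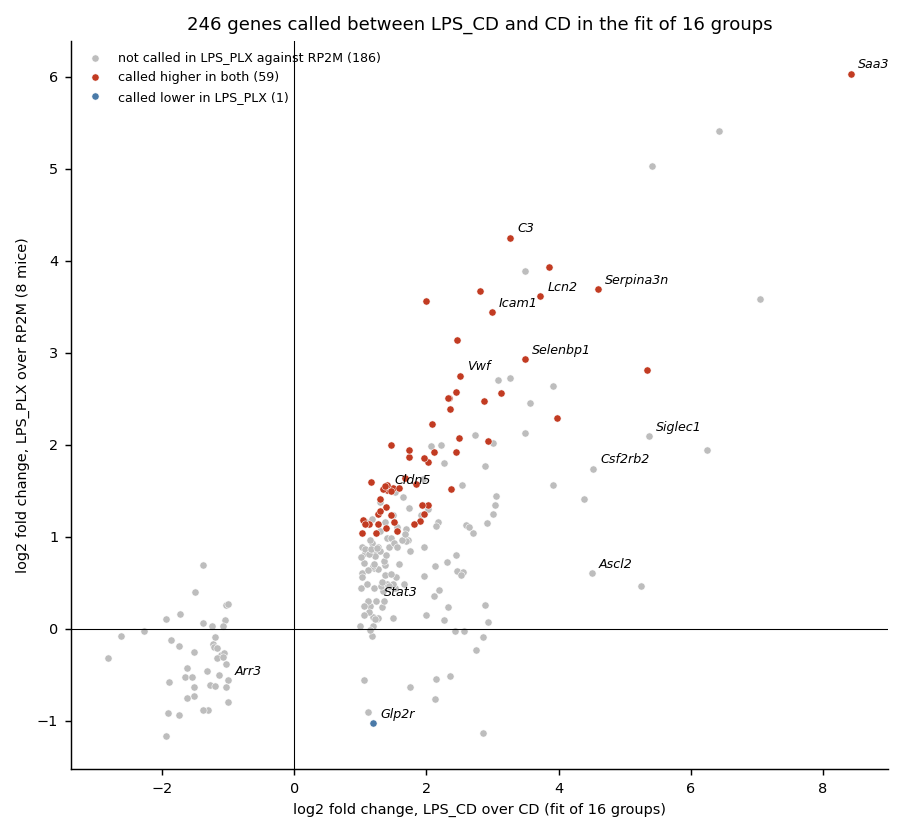
Log2 fold change of LPS_CD over CD (horizontal axis, fit of 16 groups) and of LPS_PLX over RP2M (vertical axis, 8 other mice) for the 202 genes called higher and the 44 called lower in LPS_CD. The 59 genes in red were called higher in both, and Glp2r, called higher in the one and lower in the other, lies below the horizontal line.

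Whether the LPS effect differed between the 2 experiments was tested by their interaction. With the suffix, 0 genes were called by edgeR (1519 at an unadjusted p under 0.05), and without it 0 (3733). In the fit of 16 groups 1 gene was called, Glp2r, the receptor of glucagon-like peptide 2. Glp2r was at 260 CPM in both re CD mice, at 141 to 185 CPM in the RE CD mice and at 109, 587 and 1022 CPM in LPS_CD, so that LPS_CD_1 was below all controls and the other two were above them. In RP2M it was at 316 ± 17.6 CPM and in LPS_PLX at 155 ± 26 CPM, a log2 fold change of -1.03 (FDR 3.01e-09). The difference of the effects was 2.23 on the log2 scale in the fit of 16 groups (FDR 0.000585) and 2.17 in that of the 16 mice with the suffix (FDR 0.66). A p above the threshold for the other genes does not show that the effects were alike.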

How the data were processed

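Polyadenylated RNA from whole retinal homogenate was sequenced. Per the methods and the submitters' processing notes, reads were aligned with HISAT2 to mm10, StringTie was also used, and the deposited values are raw HTSeq counts per gene, made by the authors. Versions, the strand setting and the handling of multiply mapped reads are not given in the sources used here, so antisense, overlapping and near-identical genes are uncertain. Columns were matched to titles with case respected. Of 50686 identifiers, 50376 had a symbol (GENCODE on GRCm38).

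A gene entered the test if 0.5 or more of the LPS_CD or of the CD mice had 1 or more counts of it, and the test was that of edgeR 4.0.16 (R 4.3.3) with TMM scaling and quasi-likelihood F tests. The design was title suffix plus group, with Benjamini-Hochberg adjustment, and the standard error was the log2 fold change divided by the root of F. DESeq2 1.42.0 was an alternative. Levels are CPM with TMM over all 65 mice, and summaries used Python 3.11.15. Counting intervals are exact at 95%. The scripts were tested on simulated data. Named were the 20 genes called higher and the 15 called lower with the largest changes and means of at least 1 CPM, called members of 32 lists, up to 3 abundant members of lists without calls, and defining markers. The mice, lists and rules were chosen with earlier results of these data known. A few list members are not reported by name here.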

Additional observations from a re-analysis of the deposited data

Results flagged for a closer look

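Of 152 sets of 4 or 5 mice examined, one per gene and group, 10 held a mouse that stood apart by Dixon's criterion, which chance meets in about 1 of 20 sets. In LPS_PLX, Vwf was at 35.8 CPM in LPS_PLX_4 and at 68.6 to 74.9 CPM in the other mice. In CD, H2-K1 was at 21.5 CPM in CD_2M (others 11.6 to 12.7), and Nefh at 148 CPM in CD_3 (others 117 to 122). Ackr1 was at 37.6 CPM in CD_3, below the other CD mice (66.7 to 76.9), and S100a9 at 3.35 CPM in CD_3 (others at most 0.587). Fcgr2b was at 0.645 CPM in CD_3 (others 0.119 to 0.235). A single count set 1 CD mouse apart from others at 0 for Ch25h (0.132 CPM, CD_2M), Saa3 (0.119 CPM, CD_2), Siglec1 (0.129 CPM, CD_1) and Sele (0.119 CPM, CD_2). The LPS effect on Glp2r differed between the experiments with and without replaced microglia by 2.23 on the log2 scale (FDR 0.000585, edgeR, fit of 16 groups), and in the fit of 4 groups with the suffix the FDR was 0.66.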

How the results depend on the processing

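The count of genes called depended on the model. Against 0 higher and 0 lower with the title suffix, the counts were 38 and 1 without it, 202 and 44 with all 16 groups, 53 and 5 with the likelihood ratio test, 2 and 0 with RLE scaling, 153 and 35 without a filter, 10 and 1 at an FDR under 0.05 without a fold threshold, and 20 and 1 with DESeq2. They were 0 and 0 with re mice alone and with filterByExpr. With a replicate block over mice numbered 1 to 3, they were 104 and 54 without the suffix and 12 and 1 with it. The replicate numbers did not pair the mice, with correlations of deviations of -0.116, 0.007 and -0.13 for LPS_CD and CD and of -0.005 to 0.070 for LPS_PLX and RP2M. With 1 mouse left out, the counts ran from 0 to 154 higher and 0 to 92 lower with the suffix, where CD_1 or CD_2M left out leaves 1 re CD mouse. In fits added after seeing the data, they ran from 2 to 232 and 0 to 127 without the suffix, and from 52 to 346 and 8 to 201 with all 16 groups, lowest without LPS_CD_3 and highest without LPS_CD_1. Without CD_1, CD_2, CD_3, CD_4, CD_2M and LPS_CD_2 in turn, those fits called 50, 13, 19, 9, 47 and 43 higher without the suffix and 155, 174, 185, 187, 178 and 169 with all 16 groups. The calls lower were 10, 0, 0, 0, 6 and 1, and 40, 43, 40, 40, 39 and 25. LPS_PLX against RP2M gave 109 calls, 95 with all 16 groups, 153 with a replicate block and 38 to 171 with 1 mouse left out, lowest without RP2M_4 and highest without LPS_PLX_4. The interaction gave 1 call with all 16 groups. The cause of these differences was not tested.

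Over 89 genes and 1680 comparisons with an alternative, the direction turned in 8, all with the replicate block and the suffix together: Adamts4 (-0.69), Gfap (-0.03), Fkbp5 (-0.13), Hif3a (-0.01), Edn2 (-0.28), Glp2r (-1.24), Dlg4 (0.10) and Gnat1 (0.04). In that fit the group effect is LPS_CD_1 against CD_1 alone, because CD_2 and CD_3 carry RE. Other changes shrank there without turning, from 2.33 to 0.00 for Steap4, 1.78 to 0.16 for Cebpd, 2.38 to 0.24 for Gadd45b, 3.62 to 0.78 for Lcn2, 4.88 to 1.77 for Serpina3n, 3.35 to 1.10 for C3 and to 0.26 for Stat3. In 333 a gene passed the threshold that it missed with the suffix, and since that fit called no gene, none could lose a call. Many of the 1680 comparisons could not turn a direction. The likelihood ratio test and the FDR under 0.05 keep the fold changes of the suffix fit, or nearly so. Leaving out CD_2, CD_3 or CD_4, or using the re mice alone, also left them nearly unchanged, at 2.35 to 2.36 for Vwf. At this depth, genes under about 0.4 CPM rest on fewer than 3 counts a mouse.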
